A study of Mus musculus with 8 samples.

Results

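B lineage cells were the rare cells of the mouse cortex suspensions in which both chains of the B cell receptor signalling pair, Cd79a and Cd79b, were detected. A cell was a member when the summed level of these genes reached 20 CP10k, where CP10k is the number of UMIs (counted RNA molecules) per 10000 of that cell. Cells were left out when the endothelial genes Cldn5, Flt1 and Pecam1 summed to 20 CP10k or more, when the complement genes C1qa and C1qb of microglia did so, or when the neutrophil genes S100a8 and S100a9 reached 50 CP10k. Of 50254 kept cells, 99 were members, a share of 0.197% (exact binomial 95% interval 0.160% to 0.240%). The Cd79 criterion was passed by 103 cells, of which 4 were removed by the endothelial limit and 0 by the others. The 14 members nearest to the threshold within their libraries had 20.2 to 36.1 CP10k of Cd79a and Cd79b, and the 13 nearest cells outside it had 6.54 to 19.7.

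The mice were 8 weeks old, were perfused with cold buffer, and had the cortex digested with papain, DNase and Liberase. A Lama4-/- group, without the laminin alpha 4 chain of vessel basement membranes, was set beside its own wild-type (WT) group. A Tek-Cre:Lama5-/- group, in which Cre under the Tek promoter deletes the laminin alpha 5 gene, was set beside a separate WT group. Tek is active in endothelial cells and also in precursors of blood cells. Each group was a pool of 3 brains, split over 2 deposited samples, so p-values and SDs leave out the spread between mice. Both Lama4-/- samples held identical values and were counted as 1 library, which left 7 libraries. They held 35479306 to 48314458 UMIs and 5332 to 8556 kept cells each. At most 24 barcodes were shared between any pair of libraries, and 0 of them were members in both. In cells of an endothelial gate, Lama4 stood at 0.452 and 0.444 CP10k in the WT libraries of the Lama4 experiment and at 0.000573 CP10k, from 1 UMI, in the Lama4-/- library. Lama5 stood there at 0.430 and 0.423 CP10k in its WT and at 0.247 and 0.273 CP10k in the Tek-Cre:Lama5-/- libraries. The libraries count the 3-prime end of transcripts, and whether that end lies in the deleted part of Lama5 is not given in the sources used here. Among the members Lama5 had 0 UMIs and Lama4 had 1.

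B cells arise in bone marrow from precursors that rearrange the immunoglobulin heavy chain gene first and pair its product with a surrogate light chain built from Vpreb1, Vpreb2 and Igll1. Once a kappa or lambda light chain gene is rearranged, the surrogate chain is replaced, IgM reaches the surface and the immature cell leaves the marrow. With maturation the cells gain IgD, Ms4a1 (CD20) and the MHC class II machinery, of which the invariant chain Cd74 is part. Around the brain, B cells are known mainly from the meninges and the vessel lumen.

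The members carried the transcripts that the label calls for. Ighm, the IgM heavy chain, was detected in 99 of 99 members. Igkc, the kappa light chain constant gene, was detected in 88. Ebf1, a transcription factor of B cell commitment, was detected in 96, and Ly6d, a surface marker of early and later B cells, in 82. Cd74 was not used by the rule and was detected in 69. Of 11 markers of T and NK cells, 10 were at 0 in all members and Cd3d had 1 UMI in the Lama4-/- library. The limits of the gate use 2 microglial, 3 endothelial and 2 neutrophil genes, so low levels of those were fixed by the choice of members. Of the markers that the gate did not use, 5 of 5 microglial genes were detected and summed to 1.19 to 3.05 CP10k per library, and 4 of 4 endothelial genes to 0 to 1.61 CP10k. Of 3 such neutrophil genes 1 was detected, at 0 to 0.142 CP10k. The 7 myeloid genes, all detected, summed to 3.57 to 14.2 CP10k, and 4 of 5 plasmacytoid dendritic cell genes to 0 to 4.82, with Klk1 at 0. Ighm and Ebf1 were not confined to these cells. Ighm was detected in 44.8% to 63.0% of cells in a microglia and macrophage gate, at 1.82 to 2.74 CP10k, and in 0.491% to 1.92% of endothelial gate cells. Ebf1 was detected in 62.2% to 81.1% of endothelial gate cells. Igkc was detected in at most 2.27% of cells in either gate, far below its detection in members. Both gates admitted only cells with 0 UMIs of Cd79a and Cd79b. Cells with stray B lineage RNA may thus have been left out beforehand, which applies to every comparison with these gates.

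Most members came from the Lama4 experiment. Its WT libraries held 31 members among 5594 kept cells (0.554%, exact binomial 95% interval 0.377% to 0.786%) and 32 among 5332 (0.6002%, 0.411% to 0.846%). The Lama4-/- library held 17 among 5355 (0.317%, 0.185% to 0.508%). This share was 0.260 percentage points below the WT mean of 0.577% ± 0.0325 (SD, n = 2), or 0.550 times it. With 1 Lama4-/- library the difference has no test, and the binomial interval of the knockout overlapped those of both WT libraries. The difference also moved with the gate, since it was 0.0324 points below WT when members needed 40 CP10k of Cd79a and Cd79b.

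For the Lama5 experiment, 4 members were found in WT 1 among 8556 cells (0.0468%, 0.0127% to 0.120%) and 3 in WT 2 among 8527 (0.0352%, 0.00726% to 0.103%). The Tek-Cre:Lama5-/- libraries held 4 among 8337 (0.0480%, 0.0131% to 0.123%) and 8 among 8553 (0.0935%, 0.0404% to 0.184%). The knockout mean of 0.0708% ± 0.0322 (SD, n = 2) and the WT mean of 0.0410% ± 0.00818 (SD, n = 2) differed by 0.0298 percentage points. A two-sided exact permutation test gave p = 0.33, the smallest value that 2 libraries against 2 allow. The difference was 0.00701 points without knockout library 2 and 0.0526 without knockout library 1. With a Cd79 threshold of 10 CP10k the groups overlapped, at 0.105% and 0.0586% in WT against 0.0840% and 0.105%, and the difference was 0.0127 points (exact permutation p = 0.67). Both experiments together thus gave 80 and 19 members, and no library of the Lama5 experiment reached the share of any library of the Lama4 experiment. Other leukocyte gates followed the same split between experiments. T and NK gate cells made up 0.281% to 0.373% of kept cells in the Lama4 experiment and 0.0351% to 0.0935% in the Lama5 experiment, and neutrophil gate cells 0.243% to 0.804% and 0.0351% to 0.0720%. The endothelial gate held 42.9% to 46.7% of kept cells in the first and 61.5% to 64.6% in the second. Kept cells had median UMI counts of 3039 to 3982 per library in the Lama5 experiment and 5401 to 6690 in the Lama4 experiment. The part of this depth in the shares was not tested. Experiment, mouse pool and handling cannot be told apart here.

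**Figure D1:**
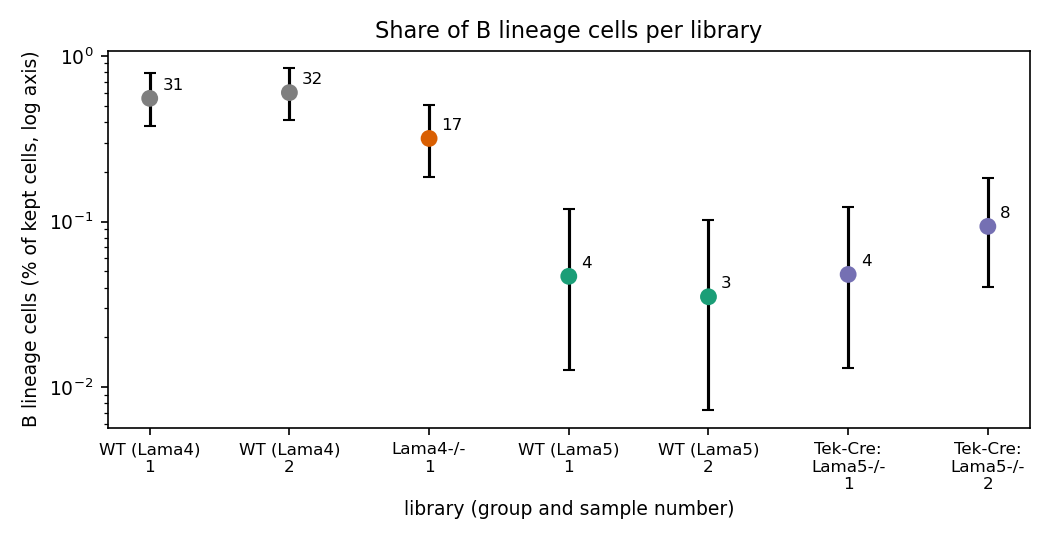
Share of B lineage cells among kept cells in each library, on a log axis, with exact binomial 95% intervals; the number beside each point is the count of member cells. The 3 libraries of the Lama4 experiment lie between 0.317% and 0.6002%, above the 0.0352% to 0.0935% of the 4 libraries of the Lama5 experiment.

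The immunoglobulin transcripts were those of unswitched B cells. Ighm stood at 53.3 and 60.5 CP10k in the WT libraries of the Lama4 experiment and at 62.2 in the Lama4-/- library, summed over members. It stood at 29.8 and 49.8 CP10k in the WT of the Lama5 experiment and at 28.4 and 44.2 in the Tek-Cre:Lama5-/- libraries. Ighd, the IgD heavy chain that is spliced from the same locus, was detected in 38 members and had 82 UMIs. Igha had 1 UMI and the other switched heavy chain genes had 0. Jchain, which joins secreted IgM and IgA, had 0 UMIs in 349247. Of 12 plasma cell genes, Jchain among them, 10 were detected. Mzb1, a chaperone also present in other B cells, was found in 62 members, and the plasma cell factors Prdm1 and Xbp1 in 3 and 13. In the Lama4 experiment Irf4, also on the list of lineage transcription factors, had 57 UMIs. Slamf7 had 40 there, Edem1 25, Txndc5 24, Sdc1 5 and Tnfrsf17 1.

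The kappa chain gene Igkc (chr6:70726435-70726966, GRCm38, plus strand) was the most abundant immunoglobulin transcript. It stood at 74.5 and 68.6 CP10k in the WT libraries of the Lama4 experiment and at 100.5 in the Lama4-/- library. In the Lama5 experiment it stood at 57.2 and 96.3 CP10k in WT and at 87.8 and 70.9 in the knockout, so the groups overlapped. Kappa UMIs exceeded lambda UMIs in 81 members, lambda exceeded kappa in 13, both were equal in 1, and 4 had no light chain UMI. The lambda constant genes Iglc1, Iglc2 and Iglc3 took 26.7% of all light chain UMIs. Iglc2 and Iglc3 are near-identical copies whose reads the counting could split either way. Both light chain classes were detected in 68 members, and lambda alone in 7. Variable segments were seldom captured by the 3-prime reads: 34 of 348 V genes had a UMI, with at most 2 UMIs of 1 V gene in a cell, and 49 members had any.

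The receptor complex and its signalling partners were detected broadly but unevenly. All 22 genes of this list had a UMI in the members, and 11 of them were found in at least 50% of members. Cd79a (chr7:24897381-24902197, plus strand) and Cd79b (chr11:106311341-106314762, minus strand) chose the cells and stood at 24.4 and 19.2 CP10k over all members. Ms4a1 was found in 44 members, against at most 0.131% of cells in the endothelial and microglia gates. Cd37, a leukocyte tetraspanin, was found in 86 members but also in 36.9% to 74.8% of microglia gate cells. Cd22, an inhibitory receptor of mature B cells, was found in 15, against at most 1.84% of cells in either gate. Among transcription factors, Pax5, the keeper of B cell identity, was found in 60 members and Spib in 66, against at most 0.019% and 0.131% of cells in those gates. Bach2 was found in 64 members, at 64.7% to 78.1% per library in the Lama4 experiment against 6.24% to 14.8% of cells in the gates. Sox4, a factor of lymphoid precursors, was found in 58.8% to 96.9% of members there, against 20.4% to 22.9% of endothelial and 49.9% to 56.1% of microglia gate cells, whose medians of 4843 to 7026 UMIs were above the members'. In the Lama5 experiment Sox4 was found in 0% to 33.3% of members per library, within or below the 30.0% to 39.1% of cells in the gates, so its detection there is not read as expression.

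The members spread along a range from cells with Vpreb3 and little MHC class II to cells with Cd74, Ms4a1 and class II. Vpreb3, a chaperone-like protein of B precursors and immature B cells (chr10:75943057-75949657, plus strand), was detected in 77 members. Split at 20 CP10k of Cd74, 50 members lay in a low range, 30 of them at 0, and 49 in a high range, with 12 between 10 and 40 CP10k. The split is a cut through a range and not a cell type. Vpreb3 was detected in 48 of the 50 low members and in 29 of the 49 high ones. Ms4a1 was detected in 7 low and 37 high members, and Ighd in 10 low and 28 high members.

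Within the 3 libraries of the Lama4 experiment, which held 46 low and 34 high members, the same order was seen on summed counts. Vpreb3 stood at 35.4, 36.2 and 39.1 CP10k in the low range of WT 1, WT 2 and Lama4-/- and at 13.1, 8.25 and 11.2 CP10k in the high range. The low range was above the high range in every one of these libraries. Sox4 stood at 21.8, 25.9 and 21.5 CP10k against 2.75, 8.82 and 3.85, and Il7r, the receptor for the growth factor of early B precursors, at 3.31, 4.45 and 3.76 against 0.250, 1.14 and 0. Myb, a factor of dividing blood progenitors, stood at 4.30, 5.03 and 5.65 against 1.37, 1.71 and 0. Igkc ran the other way, at 43.7, 42.7 and 42.9 CP10k in the low range and 97.8, 131.4 and 159.4 in the high range.

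Counted by list over those libraries, and only for genes with at least 10 UMIs, 8 of 14 precursor genes were above in the low range in 3 of 3 libraries and 0 were above in the high range. Over all 4338 genes with at least 10 UMIs other than Cd74, 18.0% were above in the low range and 15.3% in the high range in 3 of 3 libraries. Of 16 genes of mature and peripheral B cells, 10 were above in the high range and 1, Cd38, in the low range. The 10 include H2-Eb1, which is also on the MHC class II list. Ccr7, the receptor that guides cells to lymph nodes, stood at 6.36, 10.2 and 8.85 CP10k in the high range and at 2.15, 2.57 and 0.376 in the low range. Tnfrsf13c, the BAFF receptor that keeps mature B cells alive, stood at 4.74, 4.83 and 5.77 against 1.16, 1.64 and 3.76. Of 19 immediate early and heat shock genes, 8 were above in the high range and 3, Jun, Jund and Btg2, in the low range. Nr4a1, induced by receptor signalling, stood at 9.61, 2.27 and 7.31 CP10k there and at 0 in the low range of all 3 libraries, while Jund stood at 15.2, 17.3 and 13.5 in the high range and 22.0, 25.3 and 38.4 in the low range. All 10 MHC class II genes counted were above in the high range. The 10 include Cd74 itself, whose place was fixed by the cut, and a cut on Cd74 would select for the others. These counts describe the split and carry no test.

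**Figure D2:**
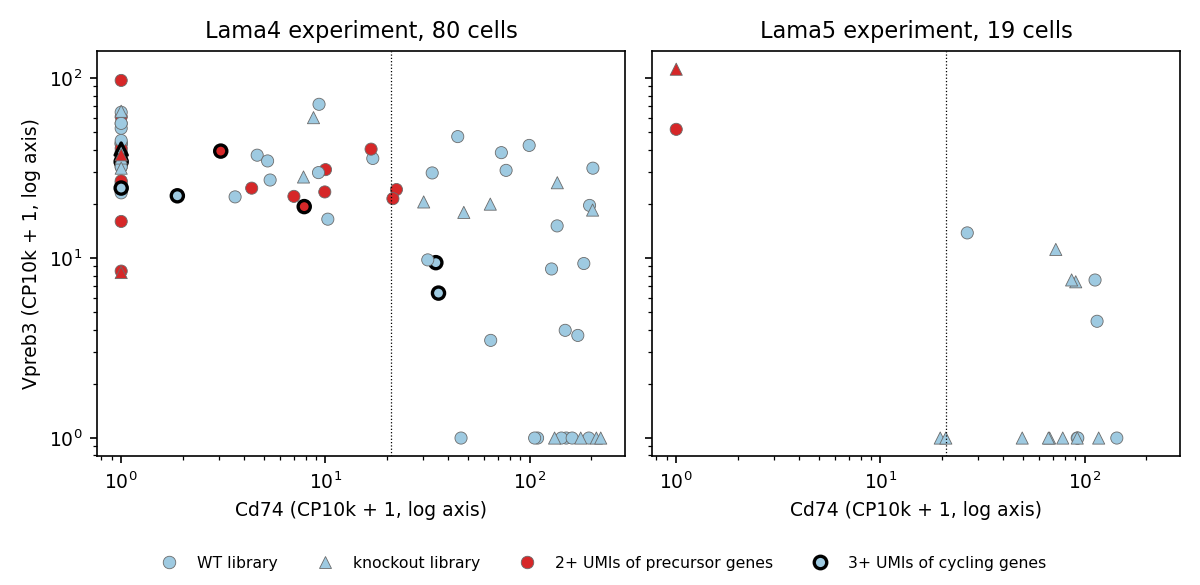
Each point is 1 member cell, placed by its Cd74 and Vpreb3 levels (CP10k plus 1, log axes), for the Lama4 experiment (80 cells) and the Lama5 experiment (19 cells); triangles are knockout cells, red marks 2 or more UMIs of precursor genes and a heavy rim 3 or more UMIs of cycling genes. The dotted line is the cut at 20 CP10k of Cd74, and 19 of the 21 red cells lie to its left.

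A small group of members carried the machinery of B cell precursors. The genes Vpreb1, Vpreb2, Igll1, Rag1, Rag2 and Dntt, the last 3 of which act on the antibody genes during rearrangement, had 195 UMIs in all. At least 2 of these UMIs were found in 21 members, of which 19 were in the low Cd74 range. Rag1 accounted for 57 UMIs in 26 members, while Vpreb1, Vpreb2, Igll1 or Dntt were found in only 7. The promoters of the surrogate light chain genes and of Cd79a, a common target of the factors E2A and EBF1, are shown. The surrogate light chain genes were detected in the same few cells, while Cd79a was required of every member and is shown for comparison. Each run is 300 bases from RefSeq on GRCm38.p6, from 250 bases before the annotated start to 50 after it, on the strand of the gene. Capitals mark the E box CAGGTG bound by E2A, or its reverse complement, and the core CCCNNGGG of EBF1 sites:
Cd79a, chr7:24897247-24897546, plus strand: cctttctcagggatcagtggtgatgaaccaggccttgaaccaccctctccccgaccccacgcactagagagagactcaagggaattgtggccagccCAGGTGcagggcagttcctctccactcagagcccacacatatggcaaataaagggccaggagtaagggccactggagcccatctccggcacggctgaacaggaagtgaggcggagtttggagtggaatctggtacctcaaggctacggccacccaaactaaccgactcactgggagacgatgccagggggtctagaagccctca
Vpreb1, chr16:16869206-16869505, minus strand: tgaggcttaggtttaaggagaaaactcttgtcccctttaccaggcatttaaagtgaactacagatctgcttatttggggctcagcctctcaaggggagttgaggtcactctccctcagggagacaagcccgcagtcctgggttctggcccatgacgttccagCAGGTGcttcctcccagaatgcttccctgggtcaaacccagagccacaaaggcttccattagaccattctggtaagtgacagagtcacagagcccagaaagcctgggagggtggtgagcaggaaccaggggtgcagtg
Vpreb2, chr16:17980315-17980614, plus strand: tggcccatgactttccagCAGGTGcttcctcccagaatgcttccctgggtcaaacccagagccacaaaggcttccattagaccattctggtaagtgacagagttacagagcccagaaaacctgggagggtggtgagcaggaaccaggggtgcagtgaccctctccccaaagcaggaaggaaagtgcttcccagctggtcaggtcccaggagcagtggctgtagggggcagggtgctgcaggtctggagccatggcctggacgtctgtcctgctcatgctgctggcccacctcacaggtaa
Igll1, chr16:16863936-16864235, minus strand: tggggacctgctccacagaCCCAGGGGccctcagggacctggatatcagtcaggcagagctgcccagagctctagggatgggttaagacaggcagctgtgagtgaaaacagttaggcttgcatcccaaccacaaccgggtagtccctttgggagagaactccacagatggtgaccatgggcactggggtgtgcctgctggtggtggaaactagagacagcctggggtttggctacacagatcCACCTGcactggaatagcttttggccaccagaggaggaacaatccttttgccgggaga

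The E box was found in all 4 windows, at 154, 88, 232 and 8 bases before the start in that order, and on the reverse strand in Igll1. On either strand it occurs in 20.2% of 32851 RefSeq promoters of this length. CCCNNGGG was found in Igll1 only, at 231 bases before the start, and occurs in 13.7%. Sites that depart from this strict core were not searched for, so the other windows may still hold EBF1 sites. The octamer ATTTGCAT, bound by OCT factors, was in none of the 4 and occurs in 1.74%. A match is a run of letters and not a bound site. Vpreb1 and Vpreb2 are near-identical copies: 153 of 156 aligned bases of their windows were the same, in a stretch that begins 106 bases before the Vpreb1 start and 250 before the annotated Vpreb2 start. Their UMIs could be assigned to either gene and are best read as a sum.

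The precursor transcripts were concentrated in 3 cells. These had 37, 31 and 68 UMIs of the 6 genes, which is 136 of 195 or 69.7%, and they came from WT libraries 1, 2 and 2 of the Lama4 experiment. The cell with 68 had 29 UMIs of Vpreb1, 11 of Vpreb2, 12 of Igll1, 12 of Dntt and 4 of Rag1. All 3 had 10 to 17 UMIs of Ighm, 13 to 51 of Vpreb3, and 0 of Igkc, the lambda genes and Cd74. All of the Dntt and Vpreb2 UMIs of the series' B lineage cells lay in these 3 cells. The other 4 cells with surrogate light chain transcripts had 1 to 5 precursor UMIs and 9 to 20 UMIs of Igkc.

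Members with at least 2 precursor UMIs numbered 7 of 31 (22.6%, exact binomial 95% interval 9.59% to 41.1%) and 10 of 32 (31.3%) in the WT libraries of the Lama4 experiment. They numbered 2 of 17 (11.8%) in the Lama4-/- library, and these 2 cells had 2 and 3 UMIs of Rag1 but 0 UMIs of Vpreb1, Vpreb2, Igll1 and Dntt. With every member thinned to 1000 UMIs the shares were 9.68%, 15.6% and 0%. In the Lama5 experiment they numbered 0 of 4 and 1 of 3 in WT and 1 of 4 and 0 of 8 in the knockout. The shares of 16.7% ± 23.6 (SD, n = 2) in WT and 12.5% ± 17.7 (SD, n = 2) in the knockout gave p = 1 in an exact two-sided permutation test, and the difference of -4.17 points turned to 12.5 without WT library 2 and to 8.33 without knockout library 2.

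Dividing cells formed another small group, partly distinct from the precursors. With a threshold of 3 UMIs summed over Mki67, Top2a, Birc5, Cdk1, Ccnb2, Cenpf, Ube2c, Tyms and Rrm2, chosen after the values were seen, 8 members counted as cycling. They were 5 of 31 and 2 of 32 members in the WT libraries of the Lama4 experiment, 1 of 17 in the Lama4-/- library and 0 of 19 in the Lama5 experiment. Of the 8, 2 also had 2 precursor UMIs or more. Cycling members were large, with a median of 8498 UMIs against 3050 in the other members. Of 6 members above 8000 UMIs, all from WT libraries of the Lama4 experiment, 5 were cycling, and the largest had 20399 UMIs. Whether such barcodes hold more than 1 cell was not tested.

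Some B lineage genes stood at other levels in the WT of one experiment than in that of the other. H2-Aa, an MHC class II chain, stood at 7.90 and 5.39 CP10k in the WT libraries of the Lama4 experiment and at 39.3 and 33.7 in those of the Lama5 experiment. Cd74 stood at 50.4 and 26.9 CP10k in the former and at 86.9 and 91.5 in the latter. Sox4 ran the other way, at 11.0 and 20.9 CP10k against 0 and 11.2. For each of H2-Aa and Cd74 the WT libraries of both experiments did not overlap, while for Sox4 they overlapped. How many of all genes lack overlap between the WT groups was not computed, so this is not read as a result. One side of it rests on 4 and 3 members. Ms4a1 and Cd72 were not higher in the Lama5 experiment. Summed over both WT libraries, Ms4a1 stood at 6.81 CP10k in the Lama4 experiment and at 3.42 in the Lama5 experiment. Cd72 stood at 6.51 and 0.684 CP10k in that order. Members had fewer UMIs in the Lama5 experiment, with medians of 1608 to 1972 per library against 3107 to 3678, and ribosomal protein genes took 26.1% to 30.7% of their UMIs against 19.5% to 22.2%. The 4 oligodendrocyte markers, all detected, summed to 5.95 to 12.9 CP10k against 1.07 to 1.52. The part of these in the levels was not tested. High Cd74 was seen in 34 of 80 members of the Lama4 experiment and in 15 of 19 of the Lama5 experiment. No gene test was run between these groups, because the Lama5 experiment had only 3 to 8 members per library.

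The stress-induced Hsp70 transcripts Hspa1a and Hspa1b were detected in the members of the Lama4 experiment only. Hspa1a, an inducible chaperone, stood at 13.1, 12.4 and 30.6 CP10k in WT 1, WT 2 and Lama4-/- of the Lama4 experiment, and had 0 UMIs in the members of all 4 libraries of the Lama5 experiment. Hspa1b, its neighbour and near copy, stood at 13.0, 10.9 and 22.6 CP10k and was likewise at 0 in the other 4. Against a floor of 3 counts over both WT libraries of the latter experiment, the WT level of the Lama4 experiment was at least 6.23-fold higher for Hspa1a and at least 5.86-fold higher for Hspa1b. The members were only part of a wider difference: in the endothelial gate the sum of Hspa1a and Hspa1b was 33.9 to 48.2 CP10k in the Lama4 experiment and 10.1 to 14.2 CP10k in the Lama5 experiment. There 74.6% to 80.9% of endothelial gate cells had a UMI of these genes, against 0 of the 19 members, whose median UMI counts lay below the 2752 to 3483 of that gate. In the 18 T and NK gate cells of the Lama5 experiment these genes had 4 UMIs, all in 1 library. With 3 to 8 members per library, a count of 0 leaves exact binomial upper limits of 36.9% to 70.8% for the share of members with a UMI. Gm42418, a transcript that overlaps ribosomal RNA, also split the experiments, at 51.6 to 57.2 CP10k in members of the Lama4 experiment and 348 to 646 in those of the Lama5 experiment. The part of tissue handling in these contrasts was not tested.

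**Figure D3:**
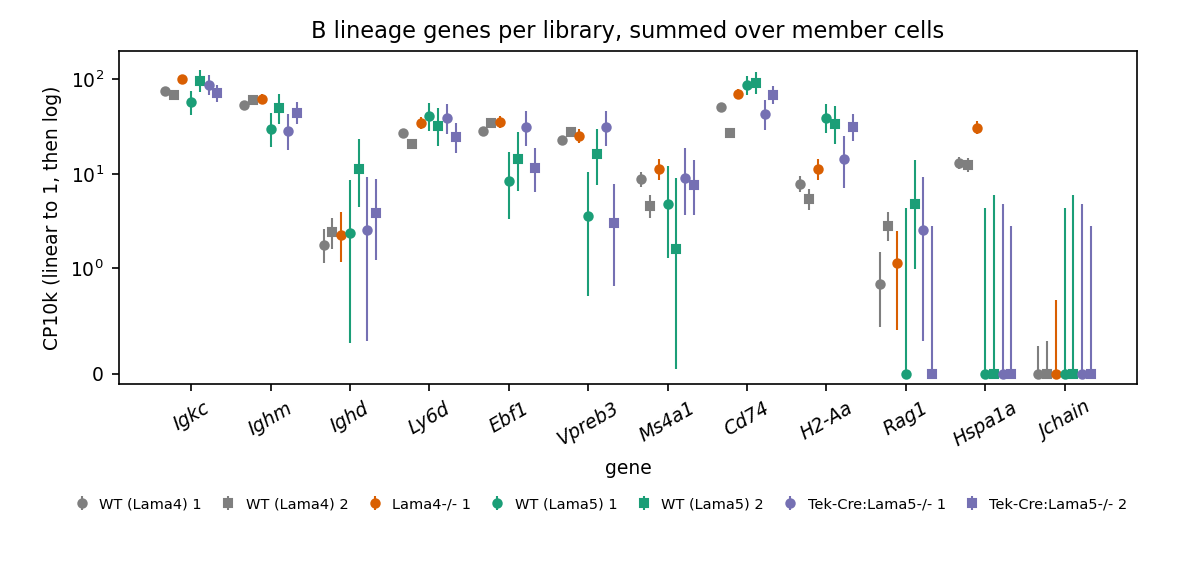
Level of 12 genes summed over the member cells of each of the 7 libraries (CP10k, linear to 1 and then log), with exact Poisson 95% intervals. Igkc spans 57.2 to 100.5 CP10k with the experiments interleaved, H2-Aa is higher in both WT libraries of the Lama5 experiment than in those of the Lama4 experiment, and Hspa1a is at 0 in the 4 libraries of the former.

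For the Lama4-/- library, genes were picked by a rule of size and not by a test: at least 10 UMIs in 1 library, at least 2-fold from the WT mean, and a Poisson 95% interval that overlaps neither WT interval. Of 2666 genes with enough UMIs, 24 (0.900%) were past the rule, 9 (0.338%) higher and 15 (0.563%) lower in the knockout. The lower genes were led by those of cell division. Top2a, the topoisomerase of dividing cells, stood at 6.33 and 2.32 CP10k in WT and at 0 in Lama4-/-, at least 7.58-fold lower. Pclaf, a replication clamp partner, stood at 5.55 and 3.15 CP10k against 0, and Mki67 at 4.34 and 1.58 against 0. Hmgb2, a chromatin protein abundant in dividing cells, stood at 22.8 and 9.37 CP10k in WT and at 2.85 (1.598 to 4.71) in the knockout. WT library 1 was the higher of the WT pair for each of these, and the knockout was below both.

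Most of these division genes rested on a few large cells. With the 6 members above 8000 UMIs left out, 9 genes were past the rule and all 9 were among the 24. Hmgb2 then stood at 4.92 and 4.84 CP10k in WT and 2.85 in Lama4-/-, and Top2a, Pclaf and Mki67 no longer had 10 UMIs in any library. The 5 lower genes that remained included Vpreb1, Nav2, Irs2 and Rps26. Vpreb1 stood at 1.35 and 3.32 CP10k in all WT members and at 0 in Lama4-/-, at least 4.09-fold lower, and 54 of its 59 UMIs came from the 3 precursor cells described above. Rps26, a ribosomal protein, stood at 21.1 and 18.0 against 8.56 (6.25 to 11.5).

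Among the 9 higher genes, Ttr, the thyroid hormone carrier made by the choroid plexus, differed most. It stood at 2.42 and 1.16 CP10k in the WT members and at 18.5 (14.97 to 22.5) in the Lama4-/- members, 10.3-fold higher, and was detected in 17 of 17. The same gene stood at 13.3 CP10k in the T and NK gate, 14.5 in the endothelial gate and 21.5 in the microglia gate of that library, with a UMI in 99.0% to 100% of those cells. In the WT libraries the endothelial gate stood at 1.49 and 4.23 CP10k, so Ttr was higher in the Lama4-/- library in other cells as well. Iglc1, a lambda light chain gene, stood at 7.40 and 11.5 CP10k in WT and at 23.4 (19.5 to 27.9) in Lama4-/-, where 43 of its 123 UMIs came from 1 cell, and in WT up to 39 came from 1 cell. Hspa1a was 2.40-fold higher, with 47 of 161 UMIs in 1 cell. Birc3, a survival factor of the NF-kappaB pathway, stood at 0.854 and 0.746 CP10k against 3.24 (1.88 to 5.18). Zfp36l2, an RNA decay factor needed for quiescence during B cell development, stood at 3.70 and 2.90 against 7.99 (5.76 to 10.8). Ttr, Birc3, Iglc1 and Zfp36l2 stayed past the rule without the large cells, while Il2rg, Hspa1a, Ier5, H2-Eb1 and H2-Ab1 did not.

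By list, the 8 MHC class II genes with enough UMIs all lay above the WT mean in the Lama4-/- library. Their median log2 difference was 0.83 against -0.06 over all 2666 genes, of which 1235 lay above that mean and 1431 below. H2-Ab1 stood at 6.47 and 6.30 CP10k in WT and 13.3 (10.4 to 16.8) in the knockout, and H2-Eb1 at 7.40 and 4.39 against 12.4 (9.55 to 15.8). Cd74 itself stood at 50.4 and 26.9 CP10k against 70.6 (63.6 to 78.2), under 2-fold from the WT mean. Members in the high Cd74 range were 16 of 31 and 9 of 32 in WT and 9 of 17 in Lama4-/-, and the part of this makeup in the class II levels was not tested. Of 14 cell cycle genes 11 lay below the WT mean, with a median of -0.91. Most division genes past the rule rested on the few large WT cells described above. The 20 receptor and signalling genes had a median of 0.32 with 0 past the rule, and the 19 lineage transcription factors a median of 0.00 with 0 past it. Vpreb3, at 22.7 and 28.0 CP10k in WT and 25.3 (21.2 to 30.0) in the knockout, lay between the WT libraries.

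**Figure D4:**
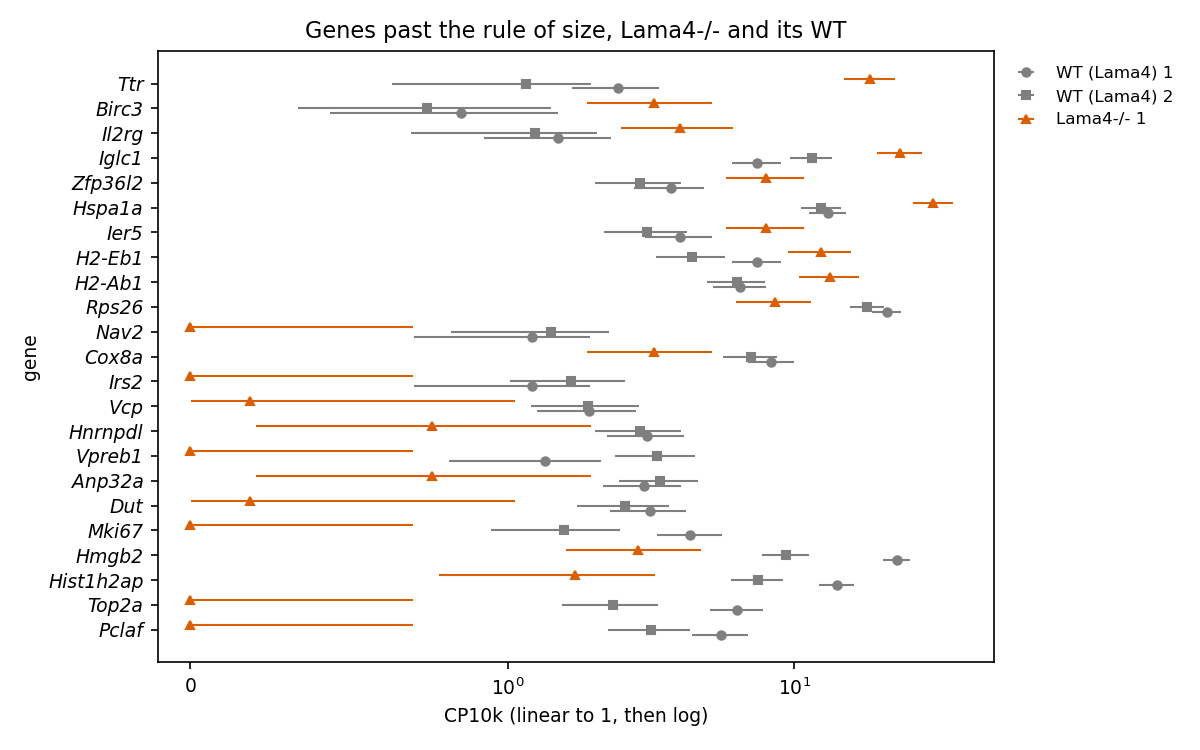
Of the 24 genes past the rule of size, 23 are drawn, with the summed level in the members of the 2 WT libraries (grey) and the Lama4-/- library (orange), in CP10k (linear to 1, then log) with exact Poisson 95% intervals. Ttr is highest above WT, and Pclaf, Top2a, Mki67, Vpreb1, Irs2 and Nav2 are at 0 in the knockout.

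In the Tek-Cre:Lama5-/- libraries 12 members were set beside 7 of their WT. Over 455 genes with at least 10 UMIs in these members, the groups of libraries did not overlap in 145 (31.9%), and of 13 B cell and state lists the summed levels did not overlap in 4, a like share that is no result about the lists. Immunoglobulin constant genes summed to 123.9 and 179.8 CP10k in WT and to 140.7 and 128.8 in the knockout. Precursor genes summed to 15.5 and 28.9 in WT and to 56.8 and 9.15 in the knockout, and integrin and homing genes to 53.6 and 44.9 against 47.8 and 41.9. The groups overlapped for each of these 3 lists. Receptor and signalling genes, which include the Cd79 genes of the gate, summed to 69.1 and 75.4 CP10k in WT and to 127.8 and 80.8 in the knockout, without overlap. MHC class II genes summed to 196.5 and 179.8 CP10k in WT and to 98.1 and 173.0 in the knockout, without overlap. Kappa exceeded lambda in 12 of 12 knockout and 5 of 7 WT members. No test of single genes was run, because a minimum of 10 members per library had been set for one, and the knockout libraries had 7747 and 13120 member UMIs and the WT libraries 8397 and 6230.

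The nearest other cells, from the same suspensions, were those of a T and NK gate (Cd3d, Cd3e, Cd3g, Trac and Nkg7 summing to at least 20 CP10k). In the 3 libraries of the Lama4 experiment, 80 B lineage cells with 313753 UMIs were compared with 53 such cells with 309262 UMIs, leaving out the genes of both gates. Of 1780 genes tested with edgeR's quasi-likelihood test and the library as a block, 678 (38.1%) passed at a Benjamini-Hochberg adjusted p under 0.05. Of these, 329 (18.5% of the tested genes) were higher in B lineage cells and 349 (19.6%) were lower. DESeq2 called 378, of which 172 were higher. The gates separate lymphocyte types, so the counts by list are read against these shares and not as independent evidence of identity.

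By the fitted log2 difference the genes furthest above T and NK cells were Ly6d and Vpreb3, an order that for genes at 0 in the other gate depends on the fit and not on a measured ratio. Ly6d had 813 UMIs in the B lineage and 0 in T and NK cells, at least 267-fold higher with 3 counts as the floor (edgeR adjusted p = 9.83e-24). Vpreb3 had 790 and 0 (at least 260-fold, edgeR adjusted p = 2.97e-23). Igkc had 2403 UMIs against 2, a ratio of 1184 (exact 95% interval 327 to 9785). Tifa, an adaptor of NF-kappaB signalling that is on no list here, had 227 against 0, and Ms4a1 and H2-Ab1 had 237 each against 0. Each of these was higher in 3 of 3 libraries, which the choice of genes without overlap between libraries required. By the same order the genes furthest below were effector genes of the other gate: Ccl5 had 2013 UMIs there and 0 in the B lineage, at least 681-fold lower, followed by Xcl1, Gzma, Trbc2 and Trbc1. Of 14 tested receptor and signalling genes 14 were higher, of 6 immunoglobulin constant genes 6, and of 6 MHC class II genes 6. Genes at 0 in T and NK cells could pass the count filter only through the B lineage, which fixed their direction. Ms4a1, Iglc1, Iglc2, H2-Aa, H2-Ab1 and H2-Eb1 were among them. These counts are therefore no result about the lists.

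Among 18 tested lineage transcription factors, 14 were higher and 1, Lef1, was lower in the B lineage. Ebf1 had 1001 UMIs against 2, a ratio of 493 (exact 95% interval 136 to 4079). Sox4 had 473 against 1 (edgeR adjusted p = 1.93e-19). Pax5 had 116 against 0, at least 38.1-fold higher, and Bcl11a 47 against 0, at least 15.4-fold higher. Klf2, Ikzf1 and Ikzf3, which act in both lineages, had log2 differences of -0.02, 0.06 and 0.09 and did not pass. Of 7 tested precursor genes 6 were higher, and the exception was Il7r, at 2.36 CP10k in the B lineage and 2.49 in T and NK cells (log2 difference -0.35 ± 0.31 SE, edgeR adjusted p = 0.412). Myl4, a myosin light chain, had 90 UMIs against 0, and Akap12, a scaffold protein, 173 against 1. Pax5, Bcl11a and Myl4, at 0 in T and NK cells, could pass the count filter only through the B lineage. The counts of transcription factors and of precursor genes are therefore no result about these lists.

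Several integrins, a family in which many bind laminins and other matrix, had lower levels in the B lineage. Of 13 tested genes of integrins, homing and laminin binding, 8 were lower in the B lineage and 2 higher. Over all tested genes 19.6% were lower. Itgb1, Itgal and Itgb7, low in the B lineage, could pass the count filter only through T and NK cells, which fixed their direction. The count is therefore no result about the list. Itgb1, the beta chain of laminin-binding integrins, stood at 0.711, 0.0829 and 0.190 CP10k in the B lineage of WT 1, WT 2 and Lama4-/- and at 4.46, 3.83 and 4.01 in T and NK cells. Its fitted log2 difference was -3.60 ± 0.41 (SE, edgeR adjusted p = 1.65e-10), and every B lineage value lay below every T and NK value. Itgal, the alpha chain of LFA-1, had 1 UMI against 71, a ratio of 0.0139 (exact 95% interval 0.000347 to 0.0799), and Itgb7 had 7 against 67. Itga4, which pairs with both beta chains, stood at 1.08 CP10k against 2.75 (log2 difference -1.59 ± 0.35 SE, edgeR adjusted p = 0.000187), a call that DESeq2 did not give. Itga6, a laminin-binding alpha chain, had 7 UMIs in all members and did not pass the count filter from either gate. Rpsa, a ribosomal protein once named the laminin receptor, stood at 32.7 CP10k against 68.9 (log2 difference -1.23 ± 0.14 SE, edgeR adjusted p = 4.28e-11).

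The homing receptors that were higher were Ccr7, at 4.65 CP10k against 0.259 (log2 difference 4.004 ± 0.45 SE, edgeR adjusted p = 9.06e-11), and S1pr1, which draws lymphocytes into blood and lymph, at 2.10 against 0.323 (2.54 ± 0.47 SE, edgeR adjusted p = 1.02e-05). Cxcr4, which holds B precursors in the marrow, stood at 3.28 against 2.78 CP10k and did not pass. Of 5 tested cytokine and receptor genes 2 were higher, 2 lower and Il2rg did not pass. Ifngr1, a chain of the interferon gamma receptor, stood at 0.733 CP10k against 5.17 (log2 difference -2.95 ± 0.35 SE, edgeR adjusted p = 4.85e-10), and Ltb, the lymphotoxin beta chain, at 1.94 against 4.95 (-1.37 ± 0.32 SE, edgeR adjusted p = 0.00035). Il12a, a subunit of interleukin 12 and of interleukin 35, had 76 UMIs in the B lineage and 0 in T and NK cells, at least 24.97-fold higher (edgeR adjusted p = 1.74e-10). It was detected in 40 members, at 1.92, 2.98 and 2.47 CP10k in the 3 libraries, while Ebi3, its interleukin 35 partner, and Il10 had 0 UMIs in all 99 members. Tgfb1 was also higher, at 4.05 CP10k against 1.23 (log2 difference 1.51 ± 0.33 SE, edgeR adjusted p = 0.000141). Of 18 tested immediate early and heat shock genes 3 were higher and 8 lower. Hspa1a was at 15.8 CP10k in the B lineage and 21.6 in T and NK cells and did not pass (edgeR adjusted p = 0.324).

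**Figure D5:**
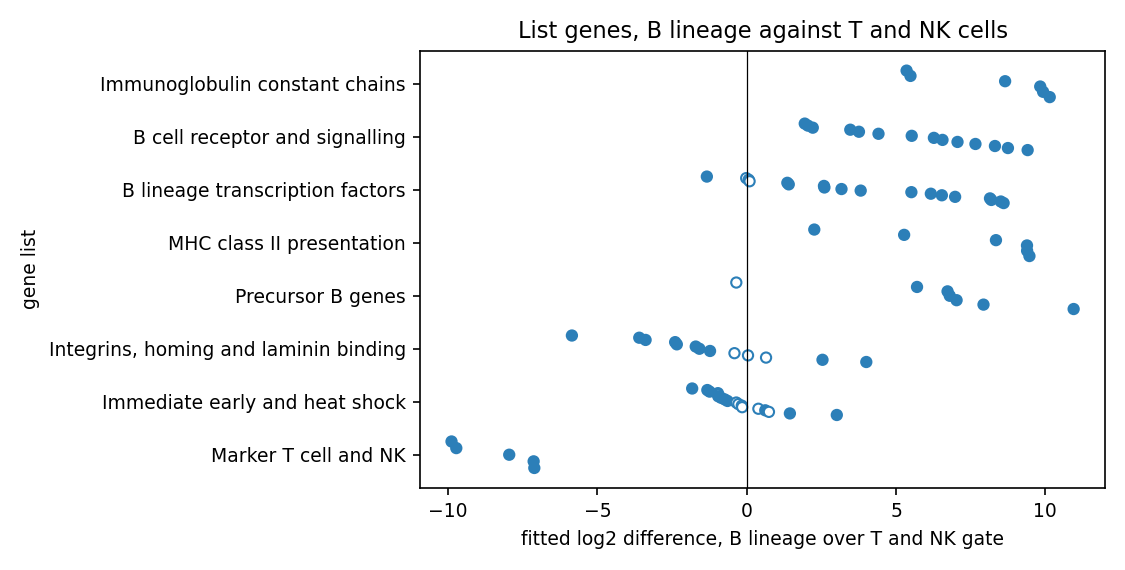
Fitted log2 difference (edgeR, library as a block) of the tested genes of 8 lists between B lineage cells and T and NK gate cells in the 3 libraries of the Lama4 experiment; filled points passed at adjusted p under 0.05. Immunoglobulin and receptor genes lie to the right, while 8 of 13 integrin and homing genes lie to the left as filled points. Over all tested genes 18.5% were higher and 19.6% lower. The count filter fixed the direction of genes nearly absent from either gate, so these positions are no result about the lists.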

How the data were processed

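Single-cell 3-prime libraries of cortex were made with the Chromium v3 kit, per the labels' protocols. The deposited files hold raw UMI counts per gene and barcode, made by the authors with Cell Ranger, software version 3.1.0 per the file headers, on mm10 per the submitters' processing notes, which also name Seurat 3.1. Cell calling settings are not given in the sources used here. Barcodes with at least 500 genes and under 15% mitochondrial UMIs were kept. No doublet caller was run. Gates, levels and intervals were computed from the counts (Python 3.11.15, numpy 2.4.6, scipy 1.17.1), and intervals cover counting error only. Counts summed per library and gate were tested with edgeR 4.0.16 in R 4.3.3 (filterByExpr, TMM, Benjamini-Hochberg), with DESeq2 1.42.0 as an alternative, after the code was tested on simulated data. Gene tests between genotypes needed 10 members per library and were not run where the Lama5 experiment had fewer. Genes named are those of 24 lists, the 10 largest called differences each way without overlap, and the genes past the rule of size. The members and lists were chosen with earlier results of these data known. Coordinates are from GENCODE M21 (99.9% of 31053 gene IDs matched), and promoters were found for 7 of 8 genes looked up. Alternatives moved the cell filters, the Cd79 threshold, the scaling, the count filter, the test and the libraries used. Some genes are not reported here.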

Additional observations from a re-analysis of the deposited data

Results flagged for a closer look

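In 4 of 15 results compared, the knockout libraries lay on opposite sides of their WT libraries in the 2 experiments, with every library of a group on the same side. None of these differences between experiments was tested, and the Lama4 experiment has 1 knockout library. The share of all genes with such opposite sides was not computed. In the Lama5 experiment alone, the groups of libraries did not overlap in 145 of 455 genes (31.9%), so the count of 4 is not read as a result. The share of B lineage cells was 0.0298 percentage points above WT in the Lama5 experiment, where both knockout libraries, at 0.0480% and 0.0935%, exceeded the WT values of 0.0468% and 0.0352%, and it was below both WT libraries in the Lama4 experiment, at 0.317% against 0.554% and 0.6002%. The separation in the Lama5 experiment depends on the threshold and on 1 library: at 10 CP10k WT 1 reached 0.105%, above the 0.0840% of knockout 1, and without knockout library 2 the difference was 0.00701 points. The summed level of 18 genes of mature and peripheral B cells differed by -7.47 CP10k from WT in the Lama5 experiment, with 91.7 and 80.3 CP10k in WT against 80.0 and 77.0, and lay above both WT libraries in the Lama4 experiment, at 79.0 against 58.5 and 51.0. The MHC class II list, which shares H2-Eb1 with the list of mature and peripheral B cells, differed by -52.6 CP10k from WT in the Lama5 experiment. It stood at 116.7 CP10k in the Lama4-/- members against 77.7 and 47.6 in their WT. The cell cycle list was 4.80 CP10k above WT in the Lama5 experiment, with 2.38 and 8.03 in WT against 11.6 and 8.38, and stood at 11.2 against 67.5 and 27.8 in the Lama4 experiment. The Lama5 values rest on 3 to 8 cells per library. Those of the cell cycle list rest on 2 and 5 UMIs in WT and 9 and 11 in the knockout.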

How the results depend on the processing

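The fall in the share of B lineage cells in the Lama4-/- library kept its direction in every setting tried. It was -0.328 percentage points under 10% mitochondrial UMIs, -0.360 with a Cd79 threshold of 10 CP10k, -0.0324 with one of 40 CP10k and -0.433 as a share of cells outside the endothelial gate. The precursor share in the Lama5 experiment, -4.17 points, turned to 12.5 with members thinned to 1000 UMIs, and with single libraries left out it ranged from -20.8 to 12.5, with a change of direction without WT library 2 or knockout library 2. Of genes called against T and NK cells, DESeq2 gave 378 in place of 678, and leaving out a library gave 513 to 723. Of 106 called genes among the 127 named and list genes tested, 86 kept direction and call in every setting and 19 lost the call with DESeq2. Hmgb2, at a log2 difference of 1.24 against T and NK cells, turned to -0.31 at 40 CP10k. Scaling by size factors shifted the median of all genes by -0.029. For the Lama4-/- rule of size, whose alternatives were chosen after seeing the data, 82 genes were past it at 10 CP10k, 2 at 40 CP10k and 9 without members above 8000 UMIs, and 50 to 68 with 1 WT library left out; the interval of only 1 WT library then has to be cleared. The causes were not tested. With the libraries of the Lama5 experiment paired by sample number (replicate block, added after seeing the data), the share differed by 0.00123 and 0.0584 points, a mean of 0.0298 (exact sign-flip p = 0.5, the smallest that 2 pairs allow), and the precursor share by -4.17 points (p = 1). The share differed by 0.0127 points at 10 CP10k and by 0.00701 to 0.0526 with single libraries left out. The planned gene comparisons of the Lama5 experiment and between WT groups, with their alternatives, were not run, because libraries of the Lama5 experiment had under 10 members.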
